A study of Mus musculus with 12 samples.

Results

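Transcripts of 10 genes of endoplasmic reticulum (ER) protein folding and the unfolded protein response (UPR) were followed in mouse haematopoietic stem cells (HSCs). The genes were Hspa5, Hsp90b1, Calr, Pdia4, Pdia6, Xbp1, Dnajb9, Manf, Sdf2l1 and Creld2. They were chosen by symbol, with earlier results of these data known. All 10 were found among the 35976 gene symbols of the count tables. HSCs here were cells sorted as lacking lineage markers and carrying c-Kit and Sca-1, a gate that also holds multipotent progenitors. They came from wild-type (WT) mice or mice labelled as knockout (KO) for CD38, a membrane enzyme that consumes NAD.

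The 12 libraries formed 6 groups of 2. Young fresh WT and young fresh KO cells came from animals of 2 months and were lysed after isolation. Young stimulated WT and young stimulated KO cells, also from animals of 2 months, were first held with cytokines ex vivo for 24 h. Old fresh WT and old fresh KO cells came from animals of 24 months. Each library was read by 3′ tag RNA sequencing, which counts transcripts from their 3′ ends. Neither the labels nor the design text used here name the allele, the promoter of any Cre, the cytokines, the number of animals per library or whether libraries share animals. P-values therefore measure only the spread between these libraries.

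The ER folds secreted and membrane proteins. When unfolded protein builds up in its lumen, the sensors IRE1, ATF6 and PERK start the UPR: IRE1 splices Xbp1 mRNA, ATF6 is cut to release a transcription factor, and PERK slows translation and favours Atf4. Spliced XBP1 and cleaved ATF6 raise chaperone genes, many of them through the ER stress element, a CCAAT box followed after 9 bases by CCACG. In HSCs, which make little protein, the UPR is known to bear on whether stressed cells survive.

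Each library held 1600155 to 5164720 counted reads, and the 4 old libraries were the deepest. Young fresh WT replicate 1 stood apart: Xist was at 0 and Y-linked transcripts at 199 CPM, against at most 7.39 CPM elsewhere. Levels are in CPM, the usual count scaled by library size, with TMM sizes except for these sex-linked genes, which were scaled by the total alone. Cd38 transcripts were counted in every library, at 13.2 to 62.8 CPM in the 4 fresh KO libraries, 17.6 to 74.4 CPM in the 4 fresh WT libraries and 0.998 to 8.58 CPM in the 4 stimulated ones. A 3′ tag can lie outside the deleted part of a gene, so this level does not check the KO label. All 11 HSC and sort markers looked for, among them Kit, Ly6a and Procr, had counts in all 6 groups.

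The ER stress element is printed first because it is the sequence that several of the 10 genes share. The RefSeq promoter table of GRCm38.p6 (the assembly of the mm10 build named for the counts) gave a window of 250 bases before to 50 after the start for 9 of the 10 genes, all but Manf. The ER stress element, CCAAT and CCACG with any 9 bases between them, on either strand, occurred in 5 of these 9 windows: those of Hspa5, Hsp90b1, Calr, Pdia6 and Creld2. Among all 27025 genes with a window, 37 held it (0.137%). The 10 were chosen as genes of ER folding and the UPR, for which the element is known, so this contrast tests nothing. Each match is shown 5′ to 3′ with 5 bases on either side, and capitals mark the CCAAT and CCACG parts; the strand is that of the letters shown.
Hspa5, chr2:34772020-34772048, plus strand: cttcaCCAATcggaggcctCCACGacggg
Hsp90b1, chr10:86705633-86705661, minus strand: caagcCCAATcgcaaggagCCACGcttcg
Hsp90b1, chr10:86705528-86705556, plus strand: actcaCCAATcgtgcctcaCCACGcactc
Calr, chr8:84847070-84847098, plus strand: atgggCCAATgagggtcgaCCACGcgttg
Pdia6, chr12:17266486-17266514, plus strand: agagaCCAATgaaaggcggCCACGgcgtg
Creld2, chr15:88819515-88819543, minus strand: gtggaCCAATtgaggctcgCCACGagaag

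Hsp90b1 carried 2 copies on opposite strands, and the nearest bases of all 6 copies lay 47 to 194 bases before the RefSeq start. The Calr copy lay on the strand opposite to the gene, 144 to 162 bases before the start, and the Pdia6 copy on the gene's own strand, 80 to 98 bases before it. Pdia4, Dnajb9 and Sdf2l1 had CCAAT and CCACG in their windows but not at the element's spacing, and Xbp1 had neither. Taken alone, CCAAT occurred in 41.1% and CCACG in 35.5% of all windows, with overlap with the element allowed. The related pair of ATTGG and CCACG with any 1 base between them, on either strand and in 0.0444% of windows, was in none of the 9. The cAMP-response-like motif TGACGTGA, in 0.507%, was in the Hspa5 window, while TGACGTGG (0.714%) and TGACGTCA (2.03%) were in none. A match describes letters in a window and not a bound site.

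The bases upstream of 3 genes are given whole because the results below turn on them: Pdia6 was higher after cytokines, Calr was lower in old cells, and Pdia4 had no count in 2 groups. Each runs 5′ to 3′ on the gene's strand and stops short of the transcribed part. Capitals mark every CCAAT box, read as ATTGG where it lies on the other strand, and the CCACG (or CGTGG) of an ER stress element.
Pdia6, chr12:17266339-17266544, plus strand: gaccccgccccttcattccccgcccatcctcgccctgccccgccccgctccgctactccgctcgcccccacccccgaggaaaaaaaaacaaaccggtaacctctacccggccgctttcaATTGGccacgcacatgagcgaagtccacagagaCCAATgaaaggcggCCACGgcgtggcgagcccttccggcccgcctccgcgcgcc
Calr, chr8:84846935-84847181, minus strand: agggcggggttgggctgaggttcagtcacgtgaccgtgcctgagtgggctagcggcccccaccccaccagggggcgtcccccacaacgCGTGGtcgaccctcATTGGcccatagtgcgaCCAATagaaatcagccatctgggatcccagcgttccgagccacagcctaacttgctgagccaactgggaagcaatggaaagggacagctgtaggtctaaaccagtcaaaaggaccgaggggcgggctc
Pdia4, chr6:47813513-47813762, minus strand: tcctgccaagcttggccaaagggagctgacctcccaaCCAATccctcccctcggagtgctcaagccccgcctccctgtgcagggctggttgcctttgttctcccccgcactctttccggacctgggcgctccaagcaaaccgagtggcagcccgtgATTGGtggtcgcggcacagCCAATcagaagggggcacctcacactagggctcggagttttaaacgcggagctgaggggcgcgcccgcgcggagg

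The levels of the 10 genes spanned a wide range. Hspa5, which encodes BiP, the main Hsp70 chaperone of the ER lumen, lay between 702 and 2488 CPM. Hsp90b1, which encodes the lumenal Hsp90 GRP94, lay between 264 and 606 CPM. Calr encodes calreticulin, a calcium-binding chaperone of newly made glycoproteins, and lay between 151 and 1156 CPM. Of the protein disulfide isomerases, which make and rearrange disulfide bonds, Pdia6 lay between 228 and 651 CPM and Pdia4 between 0 and 38.7 CPM. Xbp1, the transcription factor of the IRE1 branch, lay between 41.1 and 136 CPM. Gene counts cannot tell its spliced from its unspliced mRNA.

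The other four were low. Dnajb9 encodes ERdj4, a BiP co-chaperone, and lay between 15.5 and 122 CPM. Manf, which encodes a secreted ER stress-induced factor, lay between 16.3 and 88.5 CPM. Sdf2l1, a further partner of BiP, lay between 0 and 52.9 CPM, and Creld2, an ER stress-induced protein with EGF-like domains, between 8.81 and 60.2 CPM. In sum the 10 genes took 2453 to 3977 CPM of a library. Hspa5 gave 28.6% to 63.1% of these tags, its lowest share in young stimulated KO replicate 4 and its highest in old fresh KO replicate 3.

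**Figure D1:**
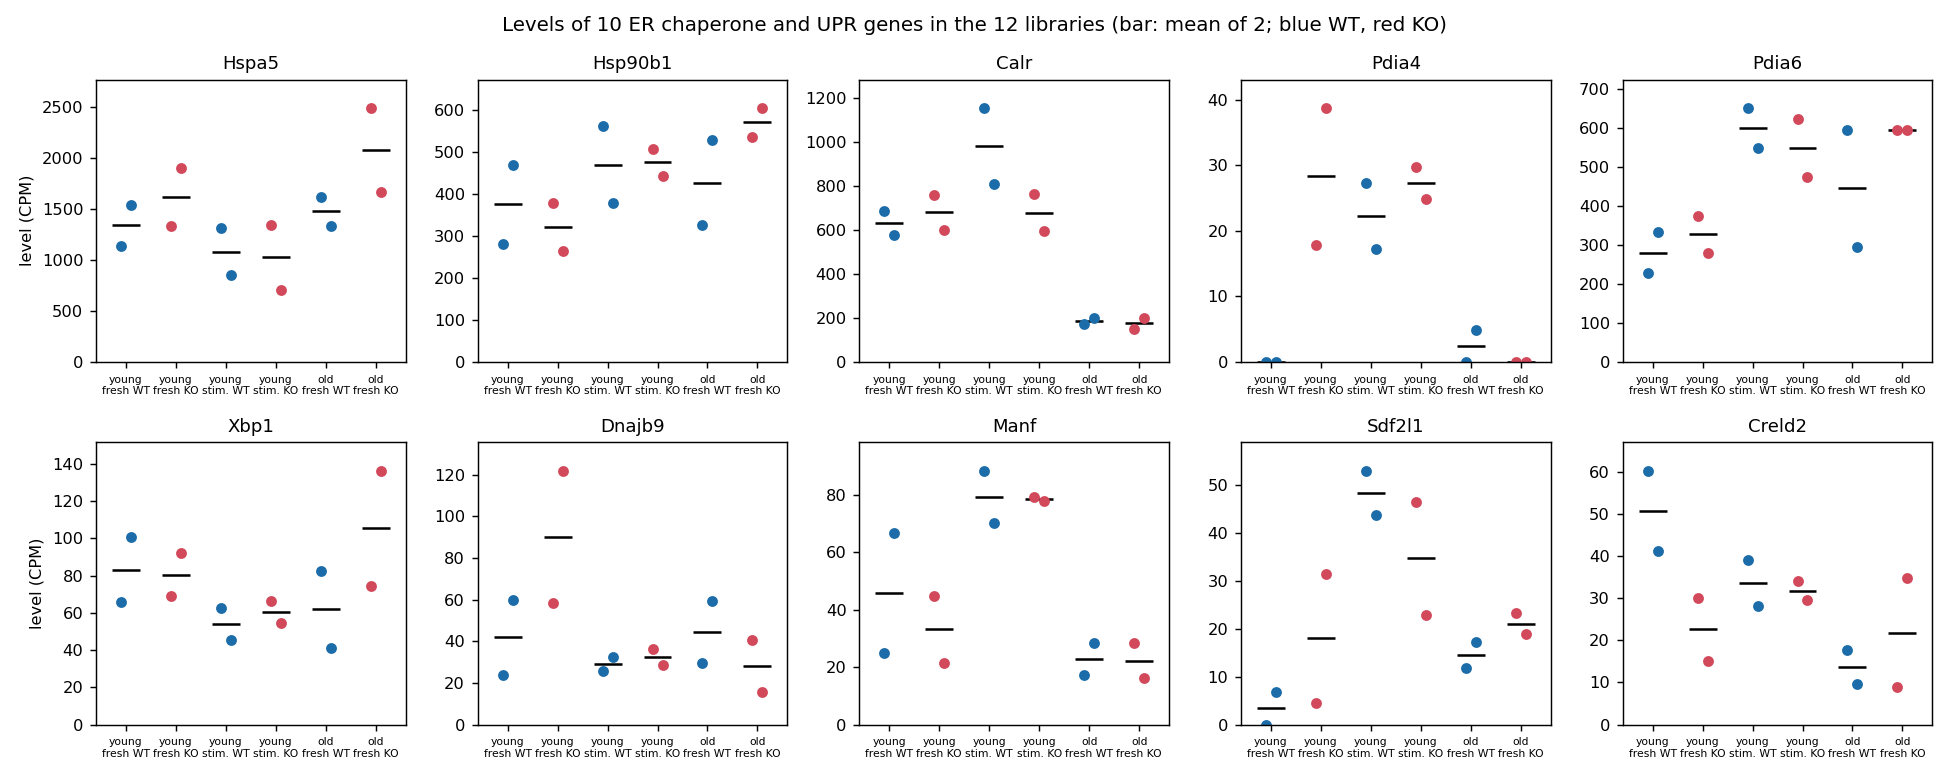
Level in CPM (vertical axes from 0, each with its own range) of the 10 genes in the 12 libraries; points are libraries, blue for WT and red for KO, and bars are means of 2. Calr is lowest in the 4 old libraries, at 151 to 200.3 CPM, and Pdia6 and Manf are higher in all 4 stimulated libraries than in all 4 young fresh ones.

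Replicates of fresh cells agreed less well than replicates of stimulated cells. The higher of the 2 replicates exceeded the lower by a median of 1.58-fold over 36 pairs of gene and fresh group, and by over 2-fold in 10 of them. In 4 further pairs a library was at 0. In stimulated cells the median was 1.28-fold over 20 pairs, with 1 pair over 2-fold. Over all genes, the common dispersion (the squared coefficient of variation between replicates beyond counting error) was 0.895 to 1.22 in the 4 fresh groups and 0.0325 and 0.0390 in the stimulated ones. A difference of a given size was therefore easier to call among stimulated cells. The tests of stimulation pooled the spread of young fresh and stimulated libraries (common dispersion 0.436). Their p-values thus rest on a spread that is that of neither kind of cell.

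The stimulated groups address HSCs activated by cytokines. After 24 h with cytokines, Pdia6 was higher than in young fresh cells, and it was the only one of the 10 genes to pass the test. Pdia6 stood at 228, 332, 375 and 280.1 CPM in young fresh cells (WT replicates 1 and 2, then KO replicates 3 and 4). In stimulated cells it stood at 651, 548, 622 and 474 CPM in the same order. The groups did not overlap, and the lowest stimulated library was a KO library. The means were 574 ± 79.2 CPM against 304 ± 63.7 CPM (SD, n = 4 each), a log2 fold change of 0.92 ± 0.18 (SE) with an adjusted p of 0.0322 in edgeR's quasi-likelihood test. All tests named below are this one, with Benjamini-Hochberg adjustment over all genes of the comparison and genotypes averaged unless stated.

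The Pdia6 call did not outlast the loss of single libraries. Without young fresh WT replicate 1, the library that stood apart, the adjusted p was 0.0576 at a log2 fold change of 0.81. Without 1 of the 4 stimulated libraries it was 0.151 (WT replicate 1), 0.104 (WT replicate 2), 0.199 (KO replicate 3) and 0.100 (KO replicate 4). The log2 fold change lay between 0.81 and 1.07 over all 8 omissions. Leaving out any 1 stimulated library also took the calls among all genes from 444 to between 51 and 75. Across all genes 444 of 10786 passed the same test, which is 4.12%, and 2.27% passed as higher, so 1 call among 10 genes is not a result about the group. The last bases of Pdia6 overlap exons of Atp6v1c2 on the opposite strand, and that gene had no count in any library.

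Manf was also higher in every stimulated library than in every young fresh one. It was at 25.1 and 66.8 CPM in young fresh WT and 44.9 and 21.5 CPM in young fresh KO cells. In stimulated cells it was at 88.5 and 70.3 CPM in WT and 79.5 and 77.8 CPM in KO. Its log2 fold change of 1.02 ± 0.41 did not pass (adjusted p = 0.177), and the fresh replicates differed more among themselves than the stimulated ones. Pdia6 and Manf were thus 2 of 10 genes with complete separation upward, against 13.9% of all genes tested.

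Pdia4 gave no count in either young fresh WT library. It was at 17.9 and 38.7 CPM in young fresh KO cells, at 27.3 and 17.2 CPM in stimulated WT and at 29.8 and 24.8 CPM in stimulated KO cells. Within WT, 134 counts stood against 0, which is at least 24.8-fold higher when 3 counts over the fresh group are taken as the floor. The adjusted p was 0.0668 within WT and 0.0507 over both genotypes, and DESeq2 called both (adjusted p 0.000463 and 0.00184). The level is low enough that such bounds cover counting error only. Fresh libraries also had counts for fewer genes, 9116 to 10231 against 13163 to 13450 in stimulated ones.

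The remaining 7 genes did not pass. Hspa5 had a log2 fold change of -0.49 ± 0.24 (adjusted p = 0.266), from 1138, 1542, 1330 and 1903 CPM in fresh to 1312, 849, 1345 and 702 CPM in stimulated cells. Its ranges overlapped, with replicates of each stimulated group further apart than the group means. Hsp90b1 gave 0.45 ± 0.22 (adjusted p = 0.254) and Calr 0.31 ± 0.16 (adjusted p = 0.285). Among the small ones, Sdf2l1 gave 2.36 ± 0.99 (adjusted p = 0.190), from 0 to 31.4 CPM in fresh cells and 22.9 to 52.9 CPM in stimulated cells. Xbp1 gave -0.52 ± 0.29, Dnajb9 -0.996 ± 0.44 and Creld2 -0.06 ± 0.45, with adjusted p of 0.319, 0.212 and 0.958. The median over the 10 genes was 0.38, beside 0.21 over all genes tested, of which 58.8% were positive.

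**Figure D2:**
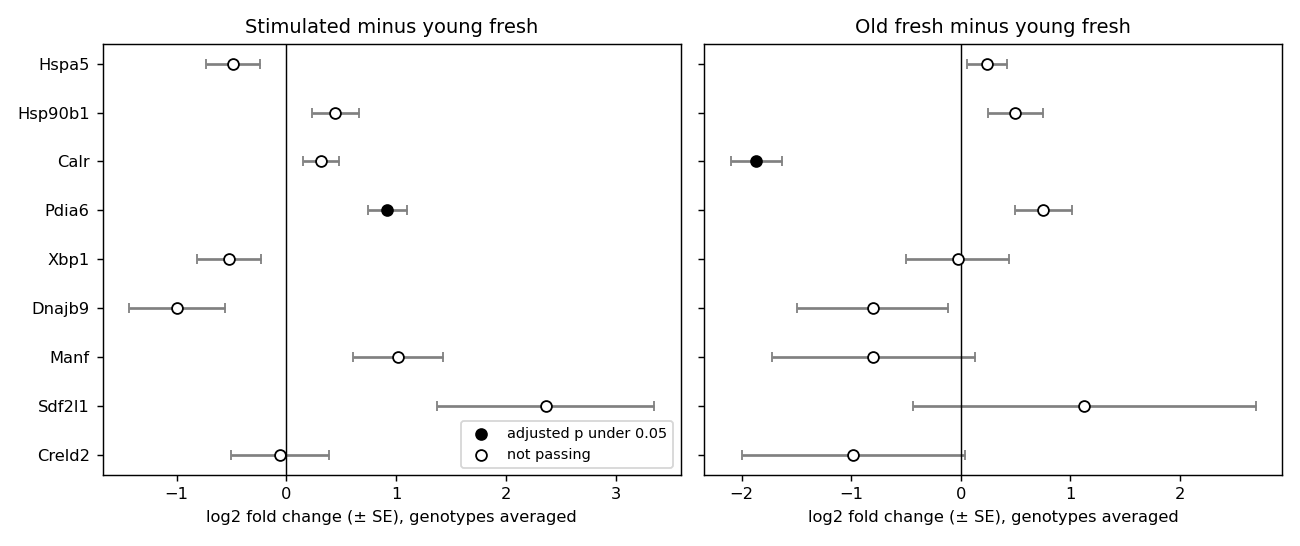
Log2 fold change (horizontal axis) ± SE of 9 genes after stimulation (left) and in old against young fresh cells (right), genotypes averaged; filled points passed at an adjusted p under 0.05, and Pdia4 is left out because a group was at 0. Pdia6 at 0.92 on the left and Calr at -1.87 on the right are the filled points.

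Of the other genes of the pathway, 84 were in the tables and 77 had enough counts to be tested after stimulation: 6 rose, none fell, and their median was 0.19, beside 0.21 over all genes. Over all genes 4.12% passed, 2.27% as higher. The oxidoreductases held 3 of the 6 among 12 tested, and the list's median was 0.08. Erp29, a lumenal protein with a thioredoxin fold, rose from 104 ± 34.4 to 335 ± 65.4 CPM (log2 1.68 ± 0.24, adjusted p = 0.0122). Pdia3, the isomerase that works with calreticulin and calnexin on glycoproteins, rose from 339 ± 119 to 582 ± 64.3 CPM (0.83 ± 0.15, adjusted p = 0.0257). P4hb, the founding protein disulfide isomerase, rose from 195 ± 31.0 to 328 ± 67.7 CPM (0.75 ± 0.14, adjusted p = 0.0307). In each of these 3 genes, named because they passed, all 4 stimulated libraries lay above all 4 young fresh ones. That held for 3 of the 12 oxidoreductases, against 13.9% of all genes. Erp44, which retains oxidoreductases and cargo in the early secretory pathway, lay below in all 4, as 5.52% of all genes did. Its -0.75 did not pass (adjusted p = 0.0600). Within WT, Erp29, Pdia3 and P4hb passed narrowly (adjusted p = 0.0491 to 0.0492), and within KO none of the 12 passed. Over all genes 0.936% passed in WT and 0.649% in KO. None of the 12 passed the test of whether the WT and KO changes differed. There 3 had an unadjusted p under 0.05, against 9.56% of all genes.

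**Figure D3:**
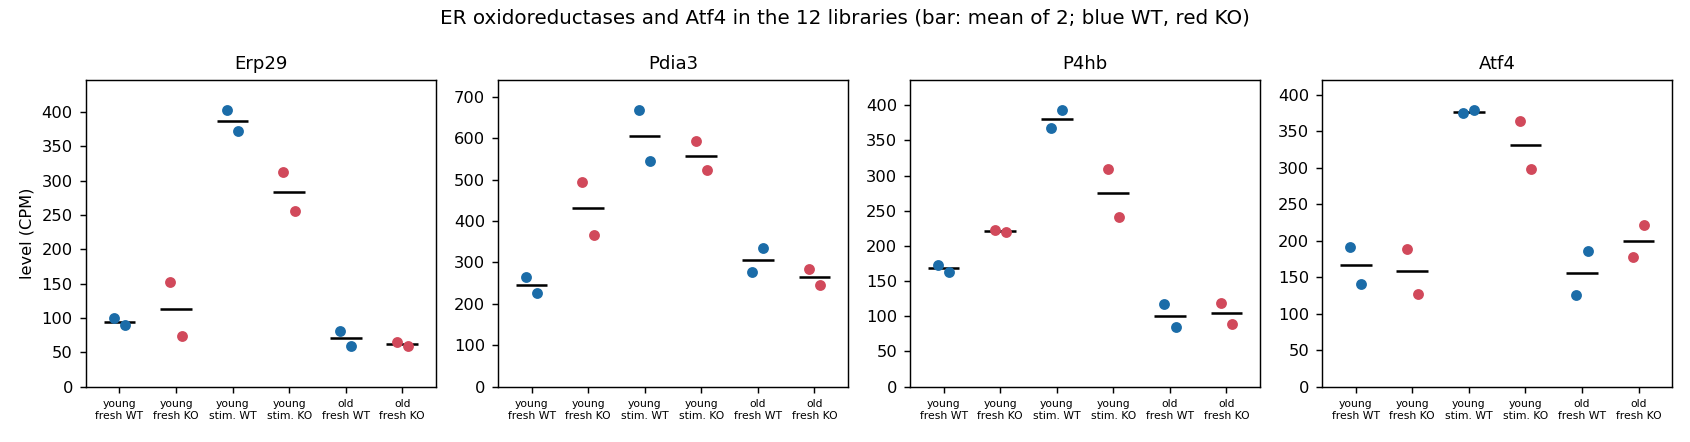
Level in CPM (vertical axes from 0) of Erp29, Pdia3, P4hb and Atf4 in the 12 libraries; points are libraries, blue for WT and red for KO, and bars are means of 2. The 4 stimulated libraries lie above the 4 young fresh ones in each panel, for Erp29 at 255 to 402 CPM against 73.3 to 153 CPM. Of all genes tested, 13.9% lay wholly above.

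The PERK list held 1 of the 6, among 7 tested. Atf4, the transcription factor whose translation PERK signalling favours, rose from 162 ± 33.0 to 354 ± 37.8 CPM (1.12 ± 0.19, adjusted p = 0.0195). Its targets did not pass: Asns was at 10.6 to 14.9 CPM after stimulation against 0 to 4.71 CPM before (adjusted p = 0.0900). Trib3 was at 2.00 to 12.2 CPM against 9.71 to 61.2 CPM (adjusted p = 0.186). Ppp1r15a, of the same list, was at 7.26 to 9.60 CPM against 0 to 8.68 CPM (adjusted p = 0.178). DESeq2 called 2 of the 7 genes of the PERK list and voom 1, and 4 had an unadjusted p under 0.05. Over all genes these shares were 14.3%, 6.17% and 24.4%. Of the sensors and their processing enzymes none of 7 passed, with Mbtps1, the protease that first cuts ATF6, at an adjusted p of 0.262. By DESeq2 and voom none of these 7 passed either, and none had an unadjusted p under 0.05.

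The last pair of called genes came from ER-associated degradation and from ER translocation and signal peptide handling. Ube2j2, a ubiquitin-conjugating enzyme of ER-associated degradation, rose from 16.1 ± 7.72 to 78.4 ± 12.6 CPM (2.27 ± 0.46, adjusted p = 0.0357), alone among 16 tested. Spcs2, a signal peptidase subunit, rose from 205 ± 48.9 to 380.2 ± 45.2 CPM (0.89 ± 0.19, adjusted p = 0.0408), alone among 21 tested. None of 14 other ER chaperones passed: 3 lay wholly above and 3 wholly below the fresh libraries, against 13.9% and 5.52% of all genes, with Serp1 at 0.73 (adjusted p = 0.0597) and Dnajc1 at -0.61 (adjusted p = 0.0853). DESeq2 called 3 of the 14, voom 1 of 15, and 4 of the 14 had an unadjusted p under 0.05. Over all genes these shares were 14.3%, 6.17% and 24.4%, so the counts are near the background. With 1 library left out, Erp29 passed in 5 of 8 fits, Atf4 in 4, and Pdia3, P4hb, Ube2j2 and Spcs2 in 3 each. Every omission of a stimulated library ended the calls of Atf4, Pdia3, P4hb, Ube2j2 and Spcs2, and all but that of stimulated WT replicate 2 ended the call of Erp29. Young fresh WT replicate 2 mattered likewise for Pdia3 (adjusted p = 0.0534 without it), P4hb and Ube2j2 (both barely over the threshold), and young fresh WT replicate 1 for Spcs2 (0.0642). In the fit of all 12 libraries and in voom, P4hb (0.0832 and 0.0691) and Ube2j2 (0.0509 and 0.0682) did not pass.

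**Figure D4:**
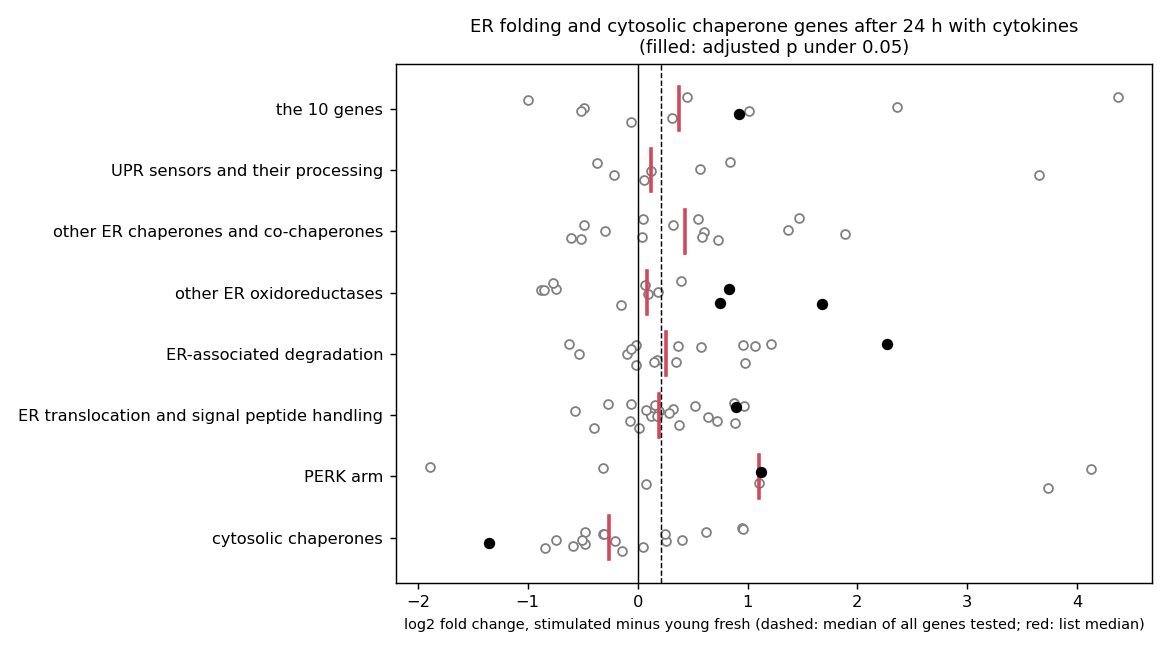
Log2 fold change after stimulation (horizontal axis) of every tested gene of the 10 and of 7 further lists (rows); filled points passed at an adjusted p under 0.05, red bars are list medians and the dashed line is the median of all genes. The filled points above 0 are Pdia6, 3 oxidoreductases, Ube2j2, Spcs2 and Atf4, and the filled point below 0 is the cytosolic Hspa4.

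The 8 other genes tested that hold the ER stress element did not pass after stimulation; DESeq2 called 1 and 2 had an unadjusted p under 0.05, near the 14.3% and 24.4% of all genes, and voom called none. The smallest p among them belonged to Dnajc3, an ER co-chaperone that also inhibits PERK (log2 -0.49 ± 0.16, adjusted p = 0.115). Of the 5 element genes among the 10, Pdia6 alone passed, and the values of Hspa5, Hsp90b1, Calr and Creld2 lay between -0.49 and 0.45.

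Summed levels of markers of other cells differed between stimulated and young fresh libraries too. The summed level of 8 monocyte and dendritic markers was 423 to 635 CPM in stimulated libraries and 56.0 to 242 CPM in young fresh ones. That of 5 mast cell and basophil markers was 41.4 to 93.2 CPM against 0 to 14.7 CPM, and all 5 had counts after stimulation against 1 of 5 in each young fresh group. The 10 neutrophil granule markers summed to 2324 to 4099 CPM against 5098 to 9702 CPM. B cell markers (9) summed to 22.4 to 208 CPM against 0.627 to 21.9 CPM, with Cd79a and Ms4a1 at 0 in both stimulated groups, and the 5 of 6 T and NK cell markers in the tables to 113 to 231 CPM against 14.3 to 34.7 CPM, with Cd3e at 0 in all 4 groups. Of 9 markers of plasma cells, which are rich in ER, 6 were in the tables, and they summed to 104 to 439 CPM after stimulation and 0 to 236 CPM before. Of these, Mzb1, Irf4 and Tnfrsf17 were at 0 in all fresh groups, and Tnfrsf17 was also at 0 in stimulated WT cells. Their part in the result was not tested, and in bulk samples fewer cells of a type and less RNA per cell cannot be told apart.

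Taken by genotype, none of the 10 genes passed after stimulation in WT or in KO cells. Against this, 0.936% of all genes passed in WT and 0.649% in KO. In WT, 4 of the 10 had an unadjusted p under 0.05, DESeq2 called 2 and voom 1, against 16.4%, 6.61% and 2.25% of all genes. In KO the counts were 2, 0 and 0, against 18.8%, 8.43% and 1.04%, so 2 of 10 is near the background. Pdia6 gave 1.08 ± 0.26 in WT (adjusted p = 0.119) and 0.76 ± 0.25 in KO (adjusted p = 0.181), and the test of the difference gave -0.32 ± 0.36 (adjusted p = 0.865). Calr gave 0.62 ± 0.23 in WT (adjusted p = 0.239) and 0.01 ± 0.23 in KO (adjusted p = 0.996), with a difference of -0.61 ± 0.33 (adjusted p = 0.584). No gene of the whole table passed this interaction (0.0%). Of the 10, Pdia4 had an unadjusted p under 0.05 (0.00205, adjusted 0.406), as 9.56% of all genes had; DESeq2 called it and 1.69% of all genes, and voom called none.

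Comparing KO with WT among stimulated cells asks whether CD38 bears on these genes once the cells are activated. None of the 10 genes passed, against 1.23% of 10494 genes tested in these 4 libraries. Calr was at 1156 and 812 CPM in WT and 763 and 594 CPM in KO cells. The WT replicates differed by 1.42-fold. The log2 fold change was -0.51 ± 0.16 (adjusted p = 0.173). Calr was the one gene of the 10 with an unadjusted p under 0.05, as 10.9% of all genes had; voom called it (adjusted p = 0.0221) and 1.97% of all genes, and DESeq2 called none of the 10. With 1 of the 4 libraries left out, 1 group holds a single library, the spread comes from the other pair alone and the lone library is assumed to vary like it. Leaving out WT replicate 1 gave -0.23 (adjusted p = 0.578) and leaving out WT replicate 2 gave -0.74 (adjusted p = 0.000447). Leaving out KO replicate 3 gave -0.70 (adjusted p = 0.256), and leaving out KO replicate 4 gave -0.35 (adjusted p = 0.809). Of these 4 fits the one that passed had the library at 1156 CPM as its lone WT library.

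The other 9 genes did not pass between genotypes after stimulation either. Sdf2l1 gave -0.45 ± 0.30 (adjusted p = 0.656) and Pdia4 0.32 ± 0.31 (adjusted p = 0.790). The remaining 7 lay between -0.11 (Pdia6) and 0.18 (Xbp1), with SE of 0.14 to 0.27 and adjusted p of 0.842 to 0.993. Manf was at 79.5 and 77.8 CPM in KO and at 70.3 and 88.5 CPM in WT. Among the 77 other pathway genes none passed, by DESeq2 none, and 6 had an unadjusted p under 0.05. Over all genes 10.9% had such a p, so the 6 are not more than the background. Voom called 4 of 79, with 3 of the 4 among 13 oxidoreductases. Over all genes voom called a smaller share, 1.97%. The smallest p values belonged to P4hb (-0.44 ± 0.14, adjusted p = 0.199) and Erp29 (-0.42 ± 0.14, adjusted p = 0.201), with Trib3 at 1.79 ± 0.61 (adjusted p = 0.233).

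In fresh cells no gene of the table passed between genotypes, in young or in old cells (0.0% each). None of the 10 had an unadjusted p under 0.05 in either, and neither DESeq2 nor voom called any. Dnajb9 was at 23.8 and 60.0 CPM in young WT and 58.2 and 122 CPM in young KO cells, with a log2 fold change of 1.10 ± 0.98 (adjusted p = 0.989). Pdia4 gave 109 counts in young KO cells against 0 in young WT, at least 31.4-fold higher in KO, with an adjusted p of 0.961. In old cells the order was the other way: 16 counts in WT, all in replicate 2, against 0 in KO, at least 6.88-fold lower in KO (adjusted p = 1.0). Hspa5 was at 1617 and 1336 CPM in old WT and 2488 and 1667 CPM in old KO cells. The log2 fold change of 0.51 ± 0.26 did not pass (adjusted p = 1.0).

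The age comparison sets freshly isolated cells of 24 months against those of 2 months. Calr was lower in old than in young fresh cells, and it was the one gene of the 10 to pass. It was at 685 and 579 CPM in young WT and 761 and 603 CPM in young KO cells. In old cells it was at 174 and 199.9 CPM in WT and 151 and 200.3 CPM in KO. The highest old library lay well below the lowest young one, and the WT and KO ranges overlapped at both ages. The means were 181 ± 23.8 against 657 ± 83.0 CPM (SD, n = 4 each), and Calr fell by 1.87 ± 0.23 on the log2 scale (adjusted p = 6.81e-05). Leaving out any 1 of the 8 libraries gave -1.97 to -1.77, and each fit passed. Old libraries were deeper than young ones, at 3796591 to 5164720 against 1600155 to 1963635 reads; with all libraries thinned to equal depth the value was -1.88 (adjusted p = 4.03e-05).

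Against this call, 291 of 10680 genes passed (2.72%), 0.964% as lower, and 3.6% of genes had all old libraries below all young ones. The test of whether the change in Calr differed between genotypes gave -0.18 ± 0.45 (adjusted p = 1.0). None of the 10 genes passed that interaction, by DESeq2 or voom either, and Pdia4 had an unadjusted p under 0.05, as 5.5% of all genes had; of all genes 0.0% passed. The 4 young fresh libraries serve both this comparison and that with stimulated cells, so the changes are not independent.

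Neutrophil granule markers were also lower in old libraries. The 10 granule markers summed to 5098 to 9702 CPM in young fresh and 424 to 3288 CPM in old libraries, and all 10 had counts in old KO and 9 in old WT cells. In stimulated libraries, where granule markers summed to 2324 to 4099 CPM, Calr was at 594 to 1156 CPM. Megakaryocyte markers summed to 1443 to 2382 CPM in old KO libraries and at most 641 CPM in the other fresh ones. HSC and sort markers summed to 1330.0 to 2125 CPM in old and 2035 to 2255 CPM in young fresh libraries. The part of these cells in the result was not tested.

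**Figure D5:**
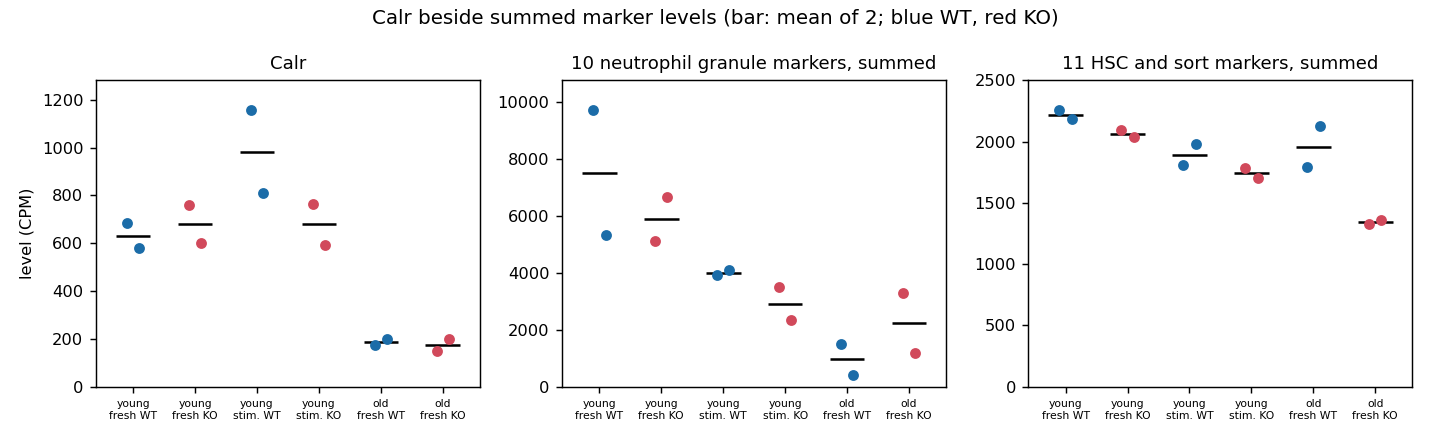
Calr level (left), summed level of 10 neutrophil granule markers (middle) and of 11 HSC and sort markers (right), all in CPM from 0, in the 12 libraries; points are libraries, blue for WT and red for KO, and bars are means of 2. Calr is lowest in the 4 old libraries. The granule markers are lower in old than in young fresh libraries, and their old range (424 to 3288 CPM) overlaps the stimulated one (2324 to 4099 CPM). In stimulated libraries the granule markers are lower than in young fresh ones and Calr is at 594 to 1156 CPM.

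The other 9 genes did not pass with age. Pdia6 came nearest at 0.76 ± 0.26 (adjusted p = 0.162), with 595, 295, 594 and 595 CPM in old libraries; DESeq2 called it (adjusted p = 0.0325). Old fresh WT replicate 2, the one at 295 CPM, lay within the young range, and without it Pdia6 passed at 0.97 (adjusted p = 0.0119). It also passed without young fresh KO replicate 3, at 0.87 (adjusted p = 0.0458). Hsp90b1 gave 0.50 ± 0.25 (adjusted p = 0.409) and Hspa5 0.24 ± 0.18 (adjusted p = 0.640). The 5 low genes had SE of 0.47 to 1.57 and adjusted p of 0.693 to 1.0. Pdia4 was at 4.80 CPM in 1 old library and at 0 in the other 3. The median of the 10 was -0.41, beside 0.05 over all genes.

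Of the other pathway genes none of 78 tested passed with age; DESeq2 called 6, voom none, and 9 had an unadjusted p under 0.05. Over all genes these shares were 8.65%, 2.2% and 13.2%, so the counts are not above the background. Of the 13 oxidoreductases 12 had values below 0, with a median of -0.77; of all genes tested 51.8% had values above 0. Erp44 was at 76.6 ± 27.5 in old against 181 ± 29.5 CPM in young fresh cells (-1.32 ± 0.36, adjusted p = 0.0593) and P4hb at 103 ± 18.7 against 195 ± 31.0 CPM (-0.92 ± 0.33, adjusted p = 0.186). Both genes and Txndc5 had every old library below every young one, which is 3 of 13 oxidoreductases against 3.6% of all genes. Of the 78 pathway genes, 5 lay wholly below and 3 wholly above. The translocon-associated Ssr1 was among the 3 above, at 461 ± 50.0 against 305 ± 46.3 CPM (0.59 ± 0.23, adjusted p = 0.251).

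The 10 genes did not vary as a block. Over the 12 libraries, the 45 pairs had a median Pearson r of 0.039 between log2 levels, with 8 pairs above 0.5 and 19 below 0. The highest was Calr with Manf (0.722) and the lowest Hspa5 with Manf (-0.563). With each group's mean taken out, these became 0.0122 and 0.185. The libraries share group and depth, so these values describe and test nothing. Of 6450 genes that averaged 20 CPM or more, the 5 whose log2 level was most like the mean standardised level of the 10 were Mcm3ap (r = 0.875), Mrpl27 (0.858), Cnn2 (0.852), Sp100 (0.849) and Serp1 (0.847). With group means taken out Mcm3ap ranked 9 and Serp1 24, and the other three ranked 95 to 189.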

How the data were processed

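QuantSeq 3′ mRNA-Seq FWD libraries were made from column-purified total RNA, per the labels' protocols. The authors deposited unnormalised counts of reads for each gene symbol. The submitters' processing notes name HISAT2 2.2.1, HTSeq 0.9.1, DESeq2 1.34.0 and the build mm10. The strand setting and the annotation are not given in the sources used here.

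Counts were fitted in R 4.3.3 with edgeR 4.0.16 (TMM, filterByExpr with a minimum count of 10 and total of 15, quasi-likelihood test), on the 8 young libraries for stimulation, the 8 fresh libraries for age and genotype, and the 4 stimulated libraries for genotype after stimulation. A gene passed at a Benjamini-Hochberg adjusted p under 0.05. SE was the log2 fold change over the root of F. Alternatives were RLE scaling, no filter, DESeq2 1.42.0, limma 3.58.1 voom with group weights, all 12 libraries, thinning to 1600155 reads, a replicate block and each library left out. Tests were run on simulated data first, with the spread of each group. In these, 100 genes changed by 1 on the log2 scale and 100 by 2. The stimulation test found 1 and 12 of them, within WT or KO 0 and 3, and the age test 3 and 18. KO against WT found 50 and 81 after stimulation, 1 and 12 in young fresh and 0 and 8 in old fresh cells. A gene that did not pass in a comparison with fresh cells is thus not shown to be unchanged. The floor for a group at 0 was 3 counts over the group, and covers counting error only. Log2 levels used a prior count of 2.

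The 10 genes, the lists, the tests and the naming rule (all 10, the genes with the smallest p of each list, those that passed, and the 5 genes most like the 10) were chosen with earlier results of these data known. Genes of lists named in the age comparison follow the same rule, chosen after their values were seen; Ssr1 was singled out likewise.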

Additional observations from a re-analysis of the deposited data

How the results depend on the processing

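Calr with age kept its direction and its call in all 7 other settings (-1.89 to -1.86) and Pdia6 after stimulation in all 7 (0.86 to 0.94). The number of the 10 genes called after stimulation was 2 with DESeq2, without a filter and with voom (Pdia4 was added), and 0 to 2 with a library left out. Within WT it was 2 with DESeq2, 1 without a filter, with voom and with the replicate block (Pdia6, 1.10), and 0 to 1 with a library left out. The interaction gave 1 with DESeq2. KO against WT after stimulation gave 1 (Calr) without a filter and with voom, and 0 to 1 with a library left out. Age gave 2 with DESeq2 and 1 to 2 with a library left out.

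Counts over all genes moved more. After stimulation they were 1541 with DESeq2, 712 with voom and 51 to 1871 with a library left out. Within WT they were 713 (DESeq2), 157 (no filter), 217 (replicate block), 260 (voom) and 7 to 421, against 101. Within KO they were 909, 161, 235, 120 and 1 to 714, against 70. The interaction gave 182 with DESeq2. KO against WT after stimulation gave 0 with all 12 libraries, 340 without a filter, 28 thinned, 227 with voom and 24 to 296 with a library left out. In young fresh cells it gave 134 (DESeq2), 3 (12 libraries), 10 (no filter) and 3 to 65, and in old ones 102, 5, 18, 2 (voom) and 7 to 41. Age gave 924 (DESeq2), 577 (12 libraries), 450 (no filter), 438 (replicate block) and 287 to 551, and its interaction 87, 4, 14, 7 and 4 to 57. The cause was not tested. The median log2 change of all genes after stimulation was 0.211, 0.150 with RLE, 0.585 with voom, 0.675 without a filter and 0.533 with the block.

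Values near 0 changed sign. Creld2 after stimulation was 0.011 thinned and -0.26 to 0.25 with a library left out. Calr after stimulation in KO was -0.0616 with DESeq2, -0.0617 with RLE, -0.00721 with 12 libraries, -0.011 thinned and -0.18 to 0.20. In KO against WT after stimulation Manf was -0.014 with 12 libraries, -0.00287 with voom and -0.14 to 0.19. With a library left out, this comparison gave -0.59 to 0.33 for Hspa5, -0.21 to 0.36 for Hsp90b1, -0.31 to 0.0691 for Pdia6, -0.0250 to 0.43 for Xbp1, -0.0034 to 0.37 for Dnajb9 and -0.27 to 0.20 for Creld2. Calr between genotypes ran from -0.0829 to 0.25 in young and -0.31 to 0.10 in old fresh cells, its age interaction from -0.42 to 0.0085, and Xbp1 with age from -0.32 to 0.19. Same-numbered libraries did not deviate together (r = -0.007 to 0.012). With 2 libraries per group and the wide spread of fresh cells, these values cannot show whether the numbers pair samples.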

Other observations

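Chaperones of the cytosol, many of them targets of the heat shock response, form a further group. Hspa4, an Hsp110-type nucleotide exchange factor for Hsp70, stood at 691 to 1137 CPM in young fresh, 304 to 390 CPM in stimulated and 2684 to 3728 CPM in old libraries. It fell by 1.36 ± 0.16 on the log2 scale after stimulation (edgeR adjusted p = 0.00567). This was the one edgeR call among 18 cytosolic chaperones tested, against 4.12% of all genes. Their median was -0.26, beside 0.21 over all genes. DESeq2 called 6 of the 18 and voom 2 of 19, and 9 of the 18 had an unadjusted p under 0.05. Over all genes these shares were 14.3%, 6.17% and 24.4%. Of the 18, 4 lay wholly above and 4 wholly below the young fresh libraries, against 13.9% and 5.52% of all genes. With age Hspa4 rose by 1.88 ± 0.17 (adjusted p = 2.16e-06). Dnajb1, an Hsp40 co-chaperone, rose with age from 141 ± 43.9 to 404 ± 147 CPM (1.51 ± 0.33, adjusted p = 0.0146). These were the 2 calls among 19 cytosolic chaperones tested with age, whose median was 0.10, against 2.72% of all genes called and a median of 0.05. With 1 library left out, both age calls passed in 8 of 8 fits, and the fall of Hspa4 after stimulation in 7 of 8; without stimulated KO replicate 4 its adjusted p was 0.0518.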
